A study of Mus musculus with 12 samples.

Results

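The 10 core genes of the circadian clock named Clock, Arntl, Per1, Per2, Per3, Cry1, Cry2, Nr1d1, Nr1d2 and Dbp were followed in RNA sequencing of mouse hypothalamus. They were chosen by symbol, and all 10 have a line among the 24020 genes of the count table. The study compared mice of the line Wfs1tm1Koks, in which Wfs1, the gene for the endoplasmic reticulum protein wolframin, carries a targeted allele. There were 4 wild-type, 4 heterozygous and 4 homozygous individuals, with 1 library each. All animals were killed by cervical dislocation and the dissected hypothalamus was frozen. The labels give no age, sex or other treatment, and no hour of killing, so it is not known here whether the genotypes were collected at the same phase of the day. The allele is inherited through the germ line and is not limited to the hypothalamus.

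The circadian clock is a feedback loop of transcription. The proteins of Clock and Arntl (also called Bmal1) form a pair that binds E-box sequences and turns on the Per and Cry genes, whose proteins return to the nucleus and block that pair. In a second loop, the REV-ERB receptors made from Nr1d1 and Nr1d2 repress Arntl through ROR elements, at which the ROR receptors made from Rora and Rorb act as activators. Dbp is an output factor that binds D-boxes and is itself driven through E-boxes. In the hypothalamus the suprachiasmatic nucleus holds the master clock that is set by light, while cells of the other nuclei keep clocks of their own. Levels of most of these transcripts rise and fall over the day, with Arntl out of step with Nr1d1, Per and Dbp.

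The start regions of the members that the results turn on hold some of these binding motifs. RefSeq promoter windows (GRCm38.p6, 250 bases before to 50 after the annotated start) were found for 9 of the 10 members, 13 windows in all. Both strands were searched for the E-box CACGTG, the variant E'-box CACGTT, the D-boxes TTATGTAA and TTACGTAA, the ROR element (an AGGTCA half-site after an AT-rich stretch), and the cAMP response element TGACGTCA. The central letters of the cAMP response element, ACGT, are also those of both E-boxes and of the second D-box. Of all 32851 windows in the RefSeq table, 7.15% held the E-box, 4.68% the E'-box, 1.06% a D-box, 0.371% a ROR element and 1.79% the cAMP response element. Shown here, 5' to 3' along the gene with matches in capitals, are Nr1d1 and Per3, the 2 members that fell, Per1, and Arntl, the target of both REV-ERB and ROR receptors.
Nr1d1, chr11:98775328-98775627, minus strand: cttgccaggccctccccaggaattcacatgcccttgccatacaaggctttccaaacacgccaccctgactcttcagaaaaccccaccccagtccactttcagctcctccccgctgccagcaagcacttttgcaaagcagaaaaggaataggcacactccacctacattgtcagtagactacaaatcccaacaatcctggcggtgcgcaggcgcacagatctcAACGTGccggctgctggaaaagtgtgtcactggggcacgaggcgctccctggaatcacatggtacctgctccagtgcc
Per3, chr4:151044616-151044915, minus strand: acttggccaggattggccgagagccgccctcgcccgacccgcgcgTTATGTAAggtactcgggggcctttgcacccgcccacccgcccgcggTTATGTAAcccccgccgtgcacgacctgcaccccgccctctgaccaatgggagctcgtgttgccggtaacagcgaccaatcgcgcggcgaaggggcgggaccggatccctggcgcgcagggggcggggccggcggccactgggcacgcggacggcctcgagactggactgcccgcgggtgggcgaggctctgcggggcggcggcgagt
Per1, chr11:69098699-69098998, plus strand: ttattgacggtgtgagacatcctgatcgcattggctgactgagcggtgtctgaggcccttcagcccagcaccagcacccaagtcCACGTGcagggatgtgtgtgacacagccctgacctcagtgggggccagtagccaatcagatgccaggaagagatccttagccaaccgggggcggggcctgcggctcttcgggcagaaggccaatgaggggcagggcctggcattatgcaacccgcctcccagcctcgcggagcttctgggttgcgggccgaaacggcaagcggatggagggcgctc
Arntl, chr7:113207261-113207560, plus strand: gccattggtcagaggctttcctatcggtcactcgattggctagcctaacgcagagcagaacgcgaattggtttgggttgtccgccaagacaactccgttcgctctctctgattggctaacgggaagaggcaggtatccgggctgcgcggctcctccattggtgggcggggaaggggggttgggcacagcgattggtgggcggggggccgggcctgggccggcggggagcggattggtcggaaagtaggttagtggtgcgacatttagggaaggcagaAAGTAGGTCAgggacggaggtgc
The Nr1d1 window held an E'-box, on the opposite strand (read as AACGTG), beginning 28 bases before the start. The Per3 window held 2 copies of the D-box TTATGTAA, beginning 205 and 158 bases before the start. The Per1 window held an E-box 166 bases before the start, and the Arntl window a ROR element that begins at base 28 of the transcript. In windows not shown, Cry1 held an E-box 60 and an E'-box 79 bases before the start, and Cry2 an E'-box 166 bases before the start. The windows of Dbp, Clock and Nr1d2 held none of these letters, nor did the other window of Per1 or that of Arntl which begins at base 113207215.

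Libraries held 979394 to 2330872 counts, so members were read from 6 counts (Arntl in homozygous replicate 5) to 468 (Clock in heterozygous replicate 2). Levels are given as CPM, counts scaled to a common library size with TMM factors. Wfs1 itself stood at 114 to 167 CPM in wild-type, 81.8 to 103 in heterozygous and 14.8 to 20.1 in homozygous libraries, in the order of the labels. Homozygous replicates 4 and 5 stood apart from all other libraries. The ribosomal RNA precursor Rn45s was at 95.6 and 85.8 CPM in them, 316 and 352 in the other homozygous, 352 to 788 in heterozygous and 958 to 1983 in wild-type libraries. A base composition score, the slope of a library's log2 CPM deviations on the GC content of the transcripts in log2 units per percentage point, was -0.0457 and -0.0507 in them. It was -0.00296 and 0.00188 in the other homozygous, -0.00146 to 0.0209 in heterozygous and 0.00276 to 0.0320 in wild-type libraries. Heterozygous replicate 2 (Rn45s 788 CPM, score 0.0209) stood apart from the rest of its group (352 to 379 CPM, -0.00146 to 0.00509). The value of each clock gene between homozygous and wild-type mice is therefore also given without homozygous replicates 4 and 5. Most values between homozygous and heterozygous mice, and those of marker genes, are not.

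The tissue label was checked against marker genes. All 15 hypothalamic markers had counts in at least 1 library, though Otp had 4 in all wild-type, 8 in all heterozygous and 0 in all homozygous libraries. Summed levels were 986 to 1404 CPM in wild-type, 1050 to 1612 in heterozygous and 1046 to 1416 in homozygous libraries. Most of each sum was Pmch (means of 880, 1047 and 1031 CPM), so the sums say little about the other markers. Summed thalamic markers ran from 670 to 876, 797 to 1078 and 857 to 1204 CPM in the same order, and those of telencephalon and striatum from 245 to 327, 279 to 326 and 300 to 492 CPM. Oligodendrocyte markers summed to 3363 to 4216, 2783 to 3996 and 2317 to 3738 CPM, and astrocyte markers to 4246 to 5424, 4497 to 4881 and 5139 to 6644 CPM. Microglial markers summed to 148 to 176, 124 to 155 and 122 to 158 CPM. Endothelial and pericyte markers, at 133 to 167, 121 to 147 and 90.3 to 120 CPM, did not overlap between wild-type and homozygous libraries. Choroid plexus markers lay at 32.4 to 38.6, 32.96 to 43.1 and 19.0 to 46.3 CPM. Pituitary markers lay at 13.2 to 24.9, 7.88 to 19.3 and 2.26 to 16.5 CPM, with 2 of 5 at 0 counts in every library. Between homozygous and wild-type mice the test called Six3 higher and Pomc, Trh and Hdc lower among 13 tested hypothalamic markers, and Slc17a6, Ntng1 and Rora higher among 8 thalamic ones. It called Camk2n1 higher among 7 of telencephalon, Mal and Ermn higher and Mag lower among 8 of oligodendrocytes, Aqp4 and Aldoc higher and Gfap lower among 7 of astrocytes, and Pdgfrb and Vtn lower among 5 of vessels. None of 5 microglial and 2 choroid plexus markers tested was called, and Pomc was the 1 pituitary marker tested. Over all genes tested, 25.4% were called in this comparison. Ermn, Aqp4 and Aldoc were also called higher in homozygous than in heterozygous mice. The part of these shifts in the results on clock genes was not tested. In whole tissue, fewer cells of a type and less RNA per cell cannot be told apart.

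The order of the clock genes was set in wild-type hypothalamus, per kilobase of annotated exon. Nr1d1 was the most abundant at 43.5 ± 5.70 CPM per kb (SD, n = 4), with a lowest library (37.2) above the highest of any other member (20.7, Dbp). Cry2 (15.1 ± 1.33), Clock (14.8 ± 1.05), Dbp (14.7 ± 5.20) and Nr1d2 (13.6 ± 2.47) followed, with ranges that overlapped. Per2 (7.97 ± 2.00), Cry1 (7.89 ± 2.01), Per3 (7.79 ± 0.662) and Per1 (7.75 ± 0.933) could not be ordered among themselves by their ranges. Arntl was the least abundant at 2.17 ± 0.601 CPM per kb, and its highest library (3.04) lay under the lowest library of any other member (5.67, Cry1).

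With both copies of Wfs1 mutant, few clock transcripts stood apart from wild-type levels. Of the 10 members, all of which passed the filter on low counts, 2 fell (Nr1d1 and Per3) and 0 rose, by edgeR's quasi-likelihood test with Benjamini-Hochberg adjustment across the table (threshold 0.05). Over all 10737 genes tested, 25.4% were called, 13.7% higher and 11.6% lower, so 2 of 10 is near that background. The log2 fold change was negative for 8 members and positive for 2, with a median of -0.13 against -0.03 for all genes tested. Libraries of wild-type and homozygous mice did not overlap for 2 members, Per3 on the lower and Nr1d2 on the higher side, against 23.6% of all genes tested (11.8% each way).

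**Figure D1:**
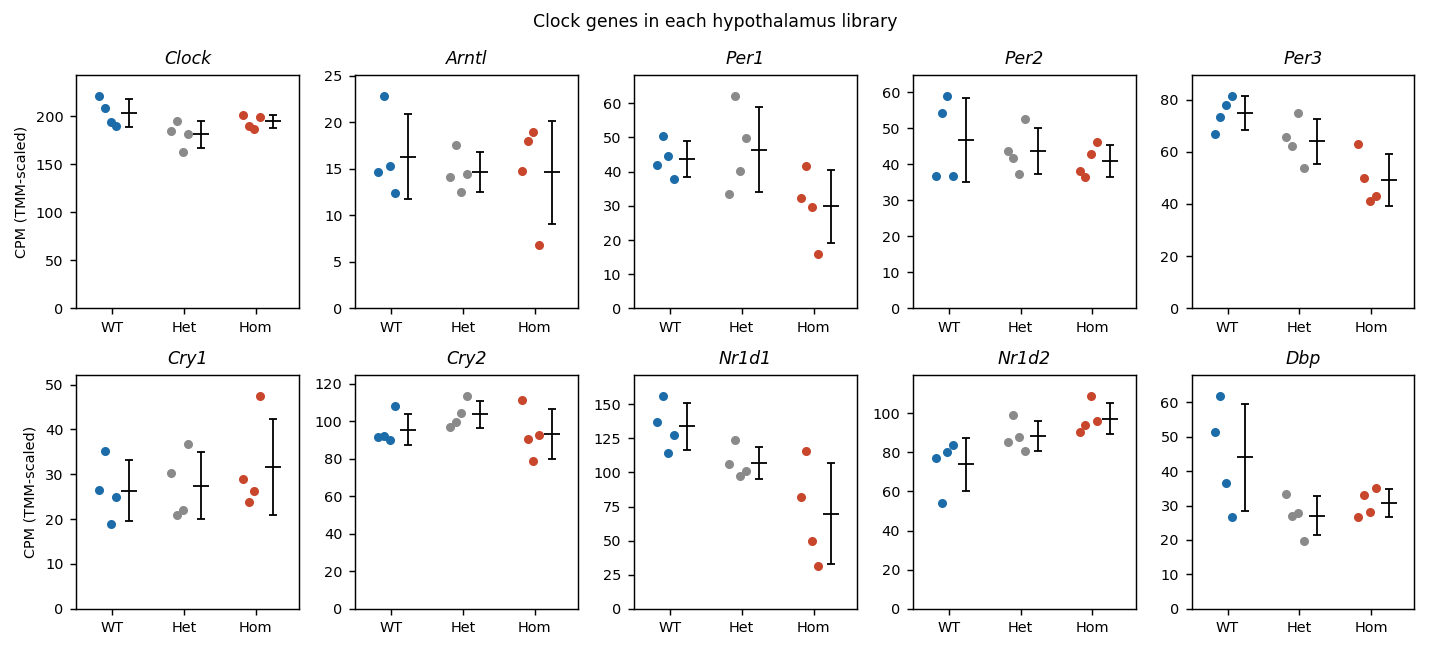
TMM-scaled CPM (y axes, from 0) of the 10 clock genes by genotype (x axes; WT wild-type, Het heterozygous, Hom homozygous). Points are the 12 libraries, and each black bar is the mean with 1 SD. Nr1d1 reaches down to 31.6 CPM in homozygous libraries, while the homozygous points of Nr1d2 lie at 90.5 or above, over all wild-type points.

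Nr1d1, the REV-ERB alpha repressor (ENSMUSG00000020889.11, mm10 chromosome 11, 98767932 to 98775333, minus strand), showed the largest difference among the members with all libraries in the fit. It stood at 137, 156, 114 and 127 CPM in wild-type replicates 1, 2, 3 and 5. Heterozygous replicates 1 to 4 held 106, 123, 97.4 and 101 CPM. Homozygous replicates 1, 2, 4 and 5 held 81.8, 116, 49.4 and 31.6 CPM. The heterozygous mean (107 CPM) lay between those of the other genotypes (134 and 69.7 CPM), while its libraries overlapped both. Homozygous replicate 2 (116 CPM) was just above wild-type replicate 3 (114 CPM), the only overlap between homozygous and wild-type libraries. Homozygous mice had 1.82-fold less Nr1d1 than the wild type (log2 fold change -0.86, SE 0.228, edgeR adjusted p = 0.00782). It stayed called in each omission of 1 library (-1.24 to -0.66), with the most negative value without homozygous replicate 2. Without homozygous replicates 4 and 5 the value was -0.41 and no longer called (adjusted p = 0.0925), and with the composition score as a covariate it was -0.20 (adjusted p = 0.666).

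Nr1d1 shares 263 bases of exon with Thra, the thyroid hormone receptor alpha gene, which runs the opposite way across its 3' end, and the strand of the counts is not given in the sources used here. Reads of that stretch cannot be assigned to either gene. Thra stood at 123, 108, 149 and 116 CPM in wild-type, 72.0, 121, 76.9 and 82.7 in heterozygous and 48.3, 77.7, 59.3 and 48.5 in homozygous libraries. It fell by 1.06 on the log2 scale (SE 0.183, edgeR adjusted p = 0.000286), with no overlap between wild-type and homozygous libraries. Without homozygous replicates 4 and 5 Thra was still called (-0.95, adjusted p = 0.00126), unlike Nr1d1. With the composition score as a covariate Thra stood at -0.66 (adjusted p = 0.0727) and was not called. The ratio of Nr1d1 to Thra counts was 0.770 to 1.44 in wild-type, 1.02 to 1.47 in heterozygous and 0.651 to 1.69 in homozygous libraries, with the 2 lowest homozygous ratios (0.833 and 0.651) in replicates 4 and 5.

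Nr1d2 encodes REV-ERB beta, the close relative that binds the same elements (ENSMUSG00000021775.11, chromosome 14, 18204054 to 18239127, minus strand). Its levels were 77.0, 54.2, 80.2 and 83.9 CPM in wild-type libraries. They were 85.5, 98.9, 87.9 and 80.7 CPM in heterozygous and 90.5, 93.8, 109 and 96.0 CPM in homozygous libraries. Every homozygous library lay above every wild-type library. The log2 fold change was 0.38 (SE 0.148), which missed the threshold (edgeR adjusted p = 0.0601). It passed with DESeq2 size factors (0.40, adjusted p = 0.0481), in DESeq2 (0.41, adjusted p = 0.0435) and without wild-type replicate 5 (0.46, adjusted p = 0.0472), and without homozygous replicates 4 and 5 it was 0.31 (adjusted p = 0.226). Within a library, Nr1d1 exceeded Nr1d2 by 0.506 to 1.502 log2 CPM in wild-type and by 0.15 to 0.32 in heterozygous mice. In homozygous replicates 1 and 2 the difference was -0.14 and 0.30, below every wild-type library, and in replicates 4 and 5 it was -1.12 and -1.56. The negative homozygous mean (-0.63 ± 0.858, SD, n = 4, against 0.86 ± 0.451 in wild-type mice) thus rests on replicates 4 and 5.

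Per3 (ENSMUSG00000028957.12, chromosome 4, 151003652 to 151044665, minus strand) belongs to the Period family, and its loss is known to leave the rhythm of behaviour largely in place. It stood at 66.7, 73.3, 78.0 and 81.4 CPM in wild-type, 65.6, 62.1, 74.7 and 53.8 in heterozygous and 63.0, 49.8, 41.2 and 42.9 in homozygous libraries. Wild-type and homozygous libraries did not overlap, though the highest homozygous library (replicate 1) was just below the lowest wild-type library (63.0 and 66.7 CPM). Per3 was 1.51-fold lower in homozygous mice (log2 fold change -0.59, SE 0.164, edgeR adjusted p = 0.0110). Omission of any single library left it called (-0.73 to -0.51, adjusted p = 0.00314 to 0.0416). Without both homozygous replicates 4 and 5 it was not called (-0.42, adjusted p = 0.122), nor with the composition score as a covariate (-0.36, adjusted p = 0.371). A block on replicate number, which left out homozygous replicate 5, also ended the call of Per3 (-0.34, adjusted p = 0.278). The gene lies within the span of Camta1 with no shared exon, and Camta1 stood at 841 ± 92.5 and 871 ± 112 CPM in wild-type and homozygous mice (SD, n = 4 each; adjusted p = 0.768).

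Per1, the Period gene that light and hormones induce most quickly (ENSMUSG00000020893.17, chromosome 11, 69095217 to 69109960, plus strand), did not pass the test. It stood at 41.8, 50.4, 44.4 and 37.9 CPM in wild-type, 33.4, 62.1, 40.3 and 49.9 in heterozygous and 32.2, 41.8, 29.7 and 15.8 in homozygous libraries. The lowest value, in homozygous replicate 5, rests on 14 counts, and homozygous replicate 2 lay within the wild-type range. The log2 fold change was -0.47 (SE 0.232, edgeR adjusted p = 0.142). Of all alternatives, omission of homozygous replicate 2 was the only one to call it (-0.69, adjusted p = 0.0379), and its sign turned with the composition score as a covariate (0.11, adjusted p = 0.866). Without homozygous replicates 4 and 5 it was -0.20 (adjusted p = 0.611).

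Per2, the Period gene whose loss shortens and then ends the rhythm of behaviour (ENSMUSG00000055866.9, chromosome 1, 91415982 to 91459324, minus strand), ran from 36.7 to 59.0 CPM in wild-type, 37.4 to 52.5 in heterozygous and 36.4 to 46.3 in homozygous libraries. The homozygous value was -0.20 on the log2 scale against wild-type (SE 0.191, adjusted p = 0.479). Without homozygous replicates 4 and 5 it was -0.31 (adjusted p = 0.392). All homozygous libraries lay within the wild-type range except replicate 2, which was just below it.

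The cryptochromes, the main repressors of the Clock and Arntl proteins, showed no call. Cry1 (ENSMUSG00000020038.10, chromosome 10, 85131700 to 85185064, minus strand) held 18.9 to 35.2 CPM in wild-type, 20.9 to 36.8 in heterozygous and 23.8 to 47.4 in homozygous libraries (0.22, SE 0.251, adjusted p = 0.548). The 47.4 CPM were in homozygous replicate 5. Without homozygous replicates 4 and 5 Cry1 stood at 0.0095 (adjusted p = 0.987), and with the composition score as a covariate at -0.27. Cry2 (ENSMUSG00000068742.11, chromosome 2, 92403646 to 92434043, minus strand) held 90.4 to 108 CPM in wild-type, 97.1 to 114 in heterozygous and 79.1 to 111 in homozygous libraries (-0.03, SE 0.138, adjusted p = 0.881). It shares 295 bases of exon with D930015M05Rik on the opposite strand, which was at 3.90 ± 1.61 CPM in wild-type mice (SD, n = 4).

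The activators also showed no call. Clock (ENSMUSG00000029238.11, minus strand, 76209868 to 76304792) lies on chromosome 5 with Wfs1, 39.2 Mb away. It ran from 190 to 221 CPM in wild-type, 163 to 195 in heterozygous and 187 to 202 in homozygous libraries, with a log2 fold change of -0.06 (SE 0.113, adjusted p = 0.721) between homozygous and wild-type mice. Arntl (ENSMUSG00000055116.8, chromosome 7, 113207465 to 113314126, plus strand), which REV-ERB proteins repress, held 14.7, 22.8, 15.3 and 12.4 CPM in wild-type libraries. Homozygous libraries held 14.8, 17.96, 18.9 and 6.77 CPM, and heterozygous libraries 12.5 to 17.5. With 6 to 42 counts a library its log2 fold change of -0.07 had an SE of 0.281 (adjusted p = 0.885), so a difference as large as that of Per3 was about 2 SE and hardly detectable at this depth.

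Dbp, the output factor (ENSMUSG00000059824.12, chromosome 7, 45705088 to 45710203, plus strand), held 51.3, 61.8, 36.4 and 26.7 CPM in wild-type libraries. Heterozygous libraries held 33.4, 27.1, 27.8 and 19.7 CPM, and homozygous libraries 26.8, 33.2, 28.0 and 35.0 CPM. Wild-type replicates 1 and 2 were the highest of all 12 libraries, and wild-type replicate 5 was among the lowest, so the wild-type spread (SD 15.6) was wider than that of either mutant group (5.64 and 3.96). The log2 fold change was -0.50 between homozygous and wild-type mice (SE 0.230, adjusted p = 0.117). It was called when wild-type replicate 5 was left out (-0.68, adjusted p = 0.0308). Without homozygous replicates 4 and 5 it was -0.50 (adjusted p = 0.204), and with the composition score as a covariate -0.67 (adjusted p = 0.210), in both cases a larger difference than that of Nr1d1. Dbp shares 539 bases of exon with Sphk2 on the opposite strand, and Sphk2 stood at 70.1 ± 16.0, 61.4 ± 13.9 and 60.4 ± 12.1 CPM in wild-type, heterozygous and homozygous mice (SD, n = 4 each; adjusted p = 0.484 between homozygous and wild-type).

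**Figure D2:**
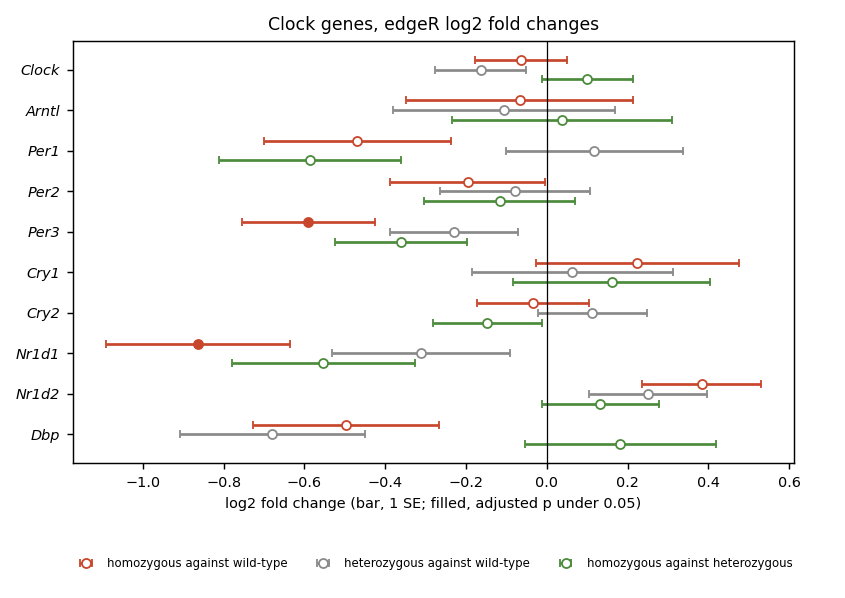
Log2 fold change (x axis; bars, 1 SE) of each clock gene (y axis) in the 3 comparisons between genotypes, with filled points for an edgeR adjusted p under 0.05. Filled points are Per3 at -0.59 and Nr1d1 at -0.86, both homozygous against wild-type.

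The same 12 libraries compared at 1 mutant copy showed less. Heterozygous and homozygous mice are compared with the same wild-type libraries, so the values of both comparisons are not independent. Between heterozygous and wild-type mice 0 of the 10 members were called by edgeR, DESeq2 or limma-voom, against 0.596% of all genes tested by edgeR (0.512% higher, 0.0838% lower). For 0 of 10 did the libraries of these genotypes lie apart without overlap, against 9.34% of all genes tested (4.77% higher, 4.57% lower). No share of all genes was counted at an unadjusted p under 0.05, so counts at that threshold, here and below, lack a background. Among the members 1 had an unadjusted p under 0.05. That gene was Dbp, at -0.68 (SE 0.228, unadjusted p = 0.00667, edgeR adjusted p = 0.168), the most negative value of the members here. Nr1d1 stood at -0.31 (SE 0.220, adjusted p = 0.555), Per3 at -0.23 (SE 0.158, adjusted p = 0.539) and Nr1d2 at 0.25 (SE 0.147, adjusted p = 0.460). Per1 stood at 0.12 (SE 0.219), Cry2 at 0.11 (SE 0.135), Cry1 at 0.06 (SE 0.248), Per2 at -0.08 (SE 0.185), Arntl at -0.11 (SE 0.275) and Clock at -0.16 (SE 0.113).

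Between homozygous and heterozygous mice, 0 of 10 members were called by edgeR, DESeq2 or limma-voom, against 2.2% of all genes tested by edgeR (1.74% higher, 0.456% lower). That share hangs on a few libraries: without heterozygous replicate 2, edgeR calls over all genes went from 187 higher and 49 lower to 4 and 2. They were 21 and 3 without homozygous replicate 4, 28 and 4 without replicate 5, and 0 and 1 without both. With the composition score as a covariate they were also 0 and 1. None of the 10 had libraries without overlap here (0, against 9.48% of all genes tested, 5% higher and 4.48% lower). At an unadjusted p under 0.05, for which no share of all genes is given, there were 3. These were Per1 (-0.59, SE 0.225, edgeR adjusted p = 0.149), Nr1d1 (-0.55, SE 0.227, adjusted p = 0.174) and Per3 (-0.36, SE 0.164, adjusted p = 0.213). Omission of homozygous replicate 2 brought Per1 (-0.81, adjusted p = 0.0389) and Nr1d1 (-0.93, adjusted p = 0.00940) past the threshold. That fit called 532 genes higher and 335 lower of 10814 tested. Over all 23 alternatives Per1 ran from -0.81 to -0.14, Nr1d1 from -0.93 to -0.02 and Per3 from -0.50 to -0.19. Nr1d2 stood at 0.13 (SE 0.144), Dbp at 0.18 (SE 0.236), Cry1 at 0.16 (SE 0.244), Cry2 at -0.15 (SE 0.136), Per2 at -0.12 (SE 0.188), Clock at 0.10 (SE 0.113) and Arntl at 0.04 (SE 0.273).

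The members differ widely in base composition, and changes over all genes moved with it. Tested genes were split by the GC content of their transcripts into 4 classes of equal size. Dbp (61.6% GC), Per1 (59.4%), Nr1d1 (56.8%), Cry2 (55.6%) and Per2 (54.3%) lie in class 4, the richest, which begins at 53.8%. The median log2 fold change of that class between homozygous and wild-type mice was -0.39, and 25.7% of its genes were called lower. Dbp (-0.50) and Per1 (-0.47) lay within 1 SE of that median, Nr1d1 (-0.86) lay below it and Cry2 (-0.03) and Per2 (-0.20) above it by more than 1 SE. Clock (40.9%) and Nr1d2 (41.8%) lie in class 1, whose median was 0.26 and of which 28.0% were called higher. Nr1d2 (0.38) lay within 1 SE of it and Clock (-0.06) below by more than 1 SE. Per3 (52.4%) and Cry1 (51.6%) lie in class 3 (median -0.12), Per3 below the median and Cry1 above it, each by more than 1 SE. Arntl (48.2%) lies in class 2 (median 0.08), within 1 SE of it. These positions rest on all libraries, homozygous replicates 4 and 5 included.

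**Figure D3:**
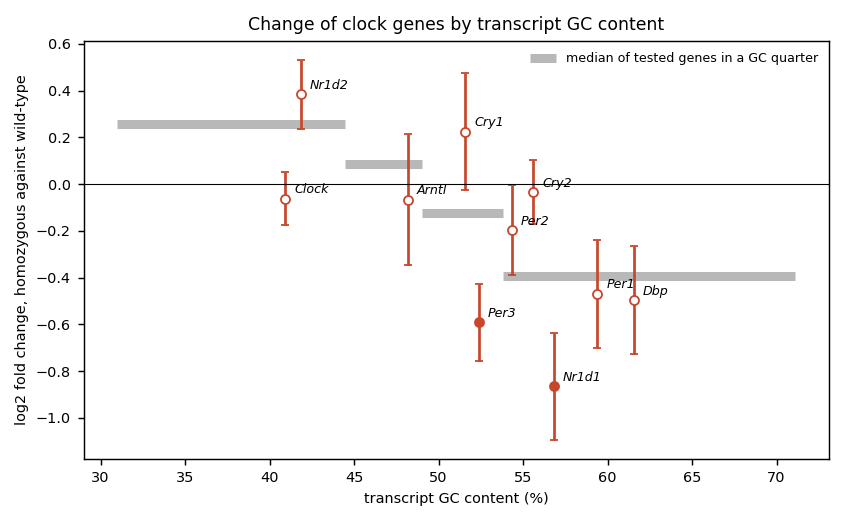
Each clock gene by GC content of its transcript (x axis, percent) and log2 fold change of homozygous against wild-type (y axis; bars, 1 SE; filled, adjusted p under 0.05). Grey bars are medians of all tested genes in 4 GC classes of equal size. The medians fall from 0.26 to -0.39, and Nr1d1 at -0.86 and Per3 at -0.59 lie below the bars at their GC content.

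Low values of several clock genes fell in the libraries that stand apart. Homozygous replicates 4 and 5, with the lowest scores, had the lowest Nr1d1 values of the 12 libraries (49.4 and 31.6 CPM), the lowest Per3 values (41.2 and 42.9) and the lowest Per1 values (29.7 and 15.8). Of the 10 members, 5 had their lowest library in these 2: Arntl, Per1 and Nr1d1 in replicate 5, and Per3 and Cry2 in replicate 4. Nr1d2 had its highest library in replicate 4 and Cry1 in replicate 5. The share of all genes with their lowest or highest library there was not counted. Dbp, the richest in GC, was not lowest in these libraries, with 28.0 and 35.0 CPM against 26.8 and 33.2 in the other homozygous libraries. Scores of wild-type and homozygous libraries did not overlap, so score and genotype cannot be told apart fully here, and the covariate fit takes up part of both.

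**Figure D4:**
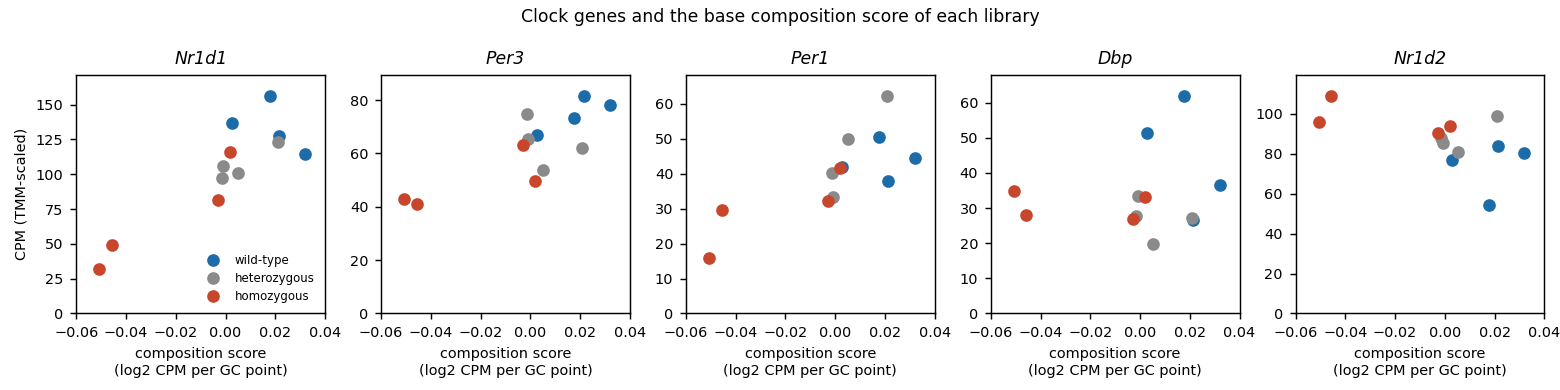
CPM (y axes, from 0) of Nr1d1, Per3, Per1, Dbp and Nr1d2 in each of the 12 libraries against the composition score of the library (x axes, log2 CPM per percentage point of GC), colored by genotype. Homozygous replicates 4 and 5 lie to the left at -0.0457 and -0.0507, and have the lowest values of Nr1d1, Per3 and Per1.

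Other genes of the clock pathway were taken from a list of 25, of which 23 have a line in the table and 20 were tested. Between homozygous and wild-type mice 4 rose (Rora, Rorb, Csnk1e and Nampt) and 2 fell (Btrc and Fbxw11), 6 of 20 against 25.4% of all genes tested, with a median of 0.16 against -0.03. Rora, the ROR receptor that activates Arntl, stood at 41.1, 24.7, 18.2 and 28.0 CPM in wild-type and 51.6, 61.1, 105 and 67.7 CPM in homozygous libraries. Heterozygous libraries, at 35.2 to 73.5 CPM, overlapped both. Its log2 fold change was 1.33 (SE 0.261, adjusted p = 0.000847), with no overlap between wild-type and homozygous libraries. Rora is also 1 of the 8 thalamic markers, and their sum given above, which includes it, was higher in part of the homozygous libraries. The largest part of that sum was Slc17a6, with means of 366, 406 and 532 CPM in wild-type, heterozygous and homozygous mice. The sum thus says little about the other thalamic markers. Of the 8, Slc17a6 and Ntng1 were called higher besides Rora. Prkcd, Tcf7l2, Lef1, Calb2 and Zic1 were not called (-0.05 to 0.30, adjusted p = 0.403 to 0.930). The part of thalamic tissue in the value of Rora was not tested. Rorb, a ROR receptor of brain and retina, rose by 0.61 (SE 0.144, adjusted p = 0.00347), from 148 ± 24.5 to 227 ± 39.8 CPM (SD, n = 4 each). Rora was still called without homozygous replicates 4 and 5 (1.02, adjusted p = 0.00595).

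Csnk1e, a casein kinase that marks PER proteins for destruction, rose by 0.43 (SE 0.145, adjusted p = 0.0318). Btrc (-0.59, SE 0.133, adjusted p = 0.00252) and Fbxw11 (-0.38, SE 0.123, adjusted p = 0.0252), the F-box proteins that recognise PER proteins so marked, fell. Nampt, the enzyme of NAD synthesis under clock control, rose by 0.82 (SE 0.196, adjusted p = 0.00389). Without homozygous replicates 4 and 5, Rorb (0.41, adjusted p = 0.0592) and Nampt (0.38, adjusted p = 0.155) were not called. The replicate block ended the calls of Rorb (0.36, adjusted p = 0.171), Nampt (0.61, 0.0615), Csnk1e (0.42, 0.149) and Fbxw11 (-0.44, 0.0820). The call of Csnk1e ended without wild-type replicate 1, 3 or 5 or homozygous replicate 1 or 2 (0.38 to 0.42, adjusted p = 0.0620 to 0.0761). It also ended with no filter (adjusted p = 0.0517) and with only these 2 genotypes in the fit (0.0545). That of Fbxw11 ended without wild-type replicate 2 or 3 or homozygous replicate 1 or 2 (-0.36 to -0.33, adjusted p = 0.0524 to 0.0940). It also ended with no filter (adjusted p = 0.0957), with a filter of 1 CPM in 4 libraries (0.0539) and with only these 2 genotypes (0.0549). With the composition score as a covariate none of the 6 was called. Rora stood at 0.75 (adjusted p = 0.137), Rorb at 0.22 (0.457), Nampt at 0.12 (0.799) and Btrc at -0.38 (0.177), all nearer to 0. Csnk1e at 0.59 (adjusted p = 0.0626) and Fbxw11 at -0.40 (0.159) were as far from 0 as before or farther.

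**Figure D5:**
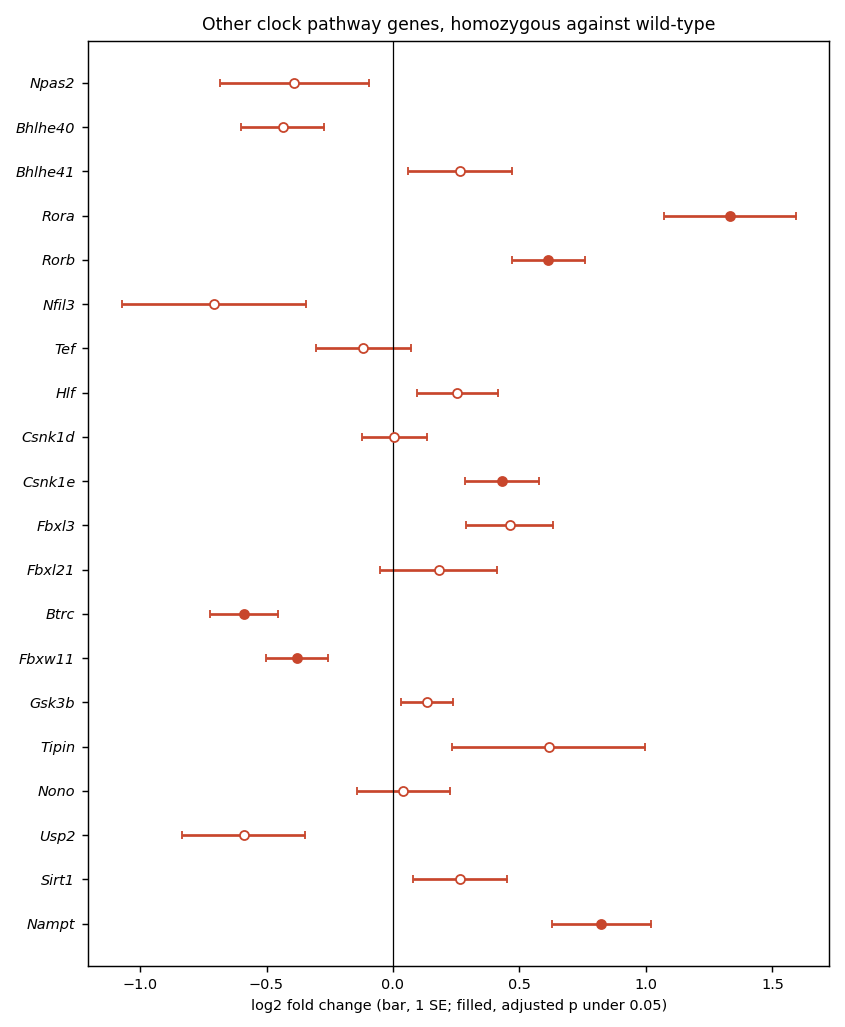
The 20 other clock pathway genes tested (y axis) with their log2 fold change, homozygous against wild-type (x axis; bars, 1 SE; filled, adjusted p under 0.05). Filled points run from -0.59 for Btrc to 1.33 for Rora.

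By edgeR, 0 of these 20 were called between heterozygous and wild-type mice (3 with an unadjusted p under 0.05; 0 by DESeq2 and by limma-voom). In homozygous against heterozygous mice 0 were called by edgeR (7 with an unadjusted p under 0.05), with 1 by DESeq2, Rorb, and 0 by limma-voom. Over all 17887 genes with counts, DESeq2 called 358 higher and 91 lower in that comparison.

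Genes that mark the suprachiasmatic nucleus ranged widely in whole hypothalamus, with means over all libraries from 1.24 CPM (Nms) to 39.8 CPM (Rgs16). Of 12 listed, 8 were tested and 1 rose between homozygous and wild-type mice, Vipr2, the receptor through which its cells receive the peptide VIP. That is 1 of 8, against 25.4% of all genes tested called and 13.7% called higher. Vipr2 held 8.07, 5.71, 2.91 and 7.46 CPM in wild-type and 12.7, 10.8, 13.2 and 20.3 CPM in homozygous libraries (1.15, SE 0.352, edgeR adjusted p = 0.0187). The 4 to 24 counts in these libraries behind each value make it imprecise, and it was not called without wild-type replicate 3 (adjusted p = 0.0773), without homozygous replicate 5 (0.0605), without homozygous replicates 4 and 5 (0.130) and with the composition score (0.505). The median of the 8 was 0.42 against -0.03 for all genes tested, with 5 values positive and 3 negative. Avp, not called, lay about as far from 0 as Vipr2 but on the lower side (-1.18, SE 0.476, edgeR adjusted p = 0.0705), with overlapping libraries. Summed levels of the list were 138 to 214 CPM in wild-type, 160 to 220 in heterozygous and 173 to 189 in homozygous libraries. In the other comparisons 0 were called by edgeR. Heterozygous against wild-type had 1 with an unadjusted p under 0.05 (0 called by DESeq2 and limma-voom). Homozygous against heterozygous had 3 (1 called by DESeq2, Rgs16, and 0 by limma-voom). DESeq2 called 358 genes higher and 91 lower of 17887 with counts in the latter comparison.

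Genes induced by neuronal activity and glucocorticoids, as Per1 is, included 10 tested of 13 listed. Between homozygous and wild-type mice 3 fell and 1 rose, 4 of 10 against 25.4% of all genes tested (13.7% higher, 11.6% lower). Nr4a1, an orphan nuclear receptor, fell by 1.298 on the log2 scale (SE 0.283, adjusted p = 0.00201). Btg2, an inhibitor of cell growth, fell by 1.69 (SE 0.416, adjusted p = 0.00495), and Fos, of the AP-1 factor, fell by 1.08 (SE 0.303, adjusted p = 0.0117). The glucocorticoid-induced Tsc22d3 rose by 0.84 (SE 0.309, adjusted p = 0.0478), so the list did not move one way. Omission of wild-type replicate 5 ended the call of Fos (-0.88, adjusted p = 0.0578). The replicate block ended those of Fos (-0.69, adjusted p = 0.173) and Tsc22d3 (0.29, adjusted p = 0.619). Tsc22d3 was not called without wild-type replicate 2, 3 or 5, heterozygous replicate 1 or 2, or homozygous replicate 4 or 5 (adjusted p = 0.0511 to 0.138), nor without both of the latter (0.53, adjusted p = 0.321). With the composition score Btg2 alone stayed called. Between heterozygous and wild-type mice edgeR called 0 (2 with an unadjusted p under 0.05), DESeq2 1 (Sgk1) and limma-voom 2 (Btg2 and Sgk1). Over all genes there, DESeq2 called 196 higher and 42 lower of 17887 with counts. Of 10737 genes limma-voom called 256 higher and 138 lower, more than edgeR did (55 and 9). Between homozygous and heterozygous mice edgeR called 0 (5 with an unadjusted p under 0.05), as did DESeq2 and limma-voom.

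Profiles over the 12 libraries were compared for Dbp and Arntl only. The genes of at least 10 CPM whose log2 CPM profile was most like that of Dbp were Alg14, Zbtb37 and Slc25a12, with root mean square differences of 0.209 to 0.225. For Arntl they were Lmln, Pigq and Atn1 (0.178 to 0.179). Among 9240 genes compared, the nearest member to Dbp was Clock at rank 445 (0.352), and the nearest to Arntl was Per1 at rank 423 (0.316). Log2 CPM of Dbp exceeded that of Arntl by 1.33 ± 0.299 (wild-type), 0.81 ± 0.367 (heterozygous) and 1.09 ± 0.732 (homozygous libraries) (SD, n = 4 each), so the means differed by less than the spread of the homozygous libraries. Cry2 exceeded Cry1 by 1.84 ± 0.367, 1.90 ± 0.330 and 1.56 ± 0.444 in the same order, with overlapping ranges.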

How the data were processed

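Total RNA of the hypothalamus was read on a SOLiD 5500xl sequencer after NuGEN Ovation cDNA synthesis, per the labels' protocols. The authors deposited raw counts per gene symbol, whole numbers with a total of their own in each library. Build mm10 is named in the submitters' processing notes. No aligner, counting tool, annotation or strand setting is given in the sources used here. Each column was assigned by the genotype prefix and number in its name. For the homozygous replicate called 5 no label bears that number, so its prefix alone placed it. The homozygous label 3 matched no column by name, and whether it is that replicate is not known.

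Symbols were matched to GENCODE M21 (20717 directly, 1886 by an older symbol, 1417 not at all). The test was edgeR (version 4.0.16, under R 4.3.3): TMM factors, the default filter (10737 genes left), quasi-likelihood F tests over all 12 libraries on genotype, Benjamini-Hochberg over all genes tested, called under 0.05. Each SE is the absolute log2 fold change over the root of its F statistic. Log2 CPM for scores and profiles used a prior count of 2. The fit was tested on simulated counts. Alternatives were DESeq2 1.42.0, limma 3.58.1 (voom with quality weights), other scaling and filters, omitted libraries, a replicate block and the composition score, for which 98.9% of tested genes had a GC value. The text names all members, genes of the other lists called in a comparison, overlapping genes, and the 3 profiles nearest to Dbp and Arntl. Members, lists and the omission of homozygous replicates 4 and 5 were chosen with earlier results of these data known.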

Additional observations from a re-analysis of the deposited data

Results flagged for a closer look

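Cry2 in wild-type replicate 5 stood at 108 CPM against 90.4 to 92.3 CPM in the other 3 wild-type libraries, a gap of 0.891 of the whole range of that group, above Dixon's critical value for groups of 4. The 30 sets of 4 libraries (10 clock genes in 3 genotypes) were looked at in this way, and chance marks about 1 in 20.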

How the results depend on the processing

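Nr1d1 and Per3 between homozygous and wild-type mice kept their direction under all 23 alternatives (-1.24 to -0.20 and -0.73 to -0.34, adjusted p = 1.07e-05 to 0.666 and 0.00314 to 0.371). The number of members called there, 2, was 0 without homozygous replicates 4 and 5, 0 without these and heterozygous replicate 2 (an alternative chosen after seeing the data), 0 with the composition score and 1 with the replicate block, where Per3 stood at -0.34 (adjusted p = 0.278). Omission of single libraries gave 2 to 4, with 4 (Nr1d2 and Dbp added) without wild-type replicate 5. The number between heterozygous and wild-type mice was 0 throughout. Between homozygous and heterozygous mice it was 1 with no filter and 0 to 2 in single omissions.

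The 6 other clock pathway genes became 2 with the block and 0 with the composition score. Between heterozygous and wild-type mice 1 (Rora) was called with no filter, with only those 2 genotypes, without homozygous replicates 4 and 5, and also without heterozygous replicate 2. In homozygous against heterozygous mice DESeq2 called 1, the fit without filter 2, and single omissions 0 to 5. Over all genes in that comparison, the fit without filter called 501 higher and 226 lower of 17887. Calls were 4 and 2 without heterozygous replicate 2, and 532 and 335 without homozygous replicate 2. For suprachiasmatic genes the 1 call between homozygous and wild-type mice became 2 with no filter, 0 to 3 in single omissions, and 0 with the block, in the same 11 libraries without it (also chosen after seeing the data), without homozygous replicates 4 and 5 (with or without heterozygous replicate 2) and with the score. Between heterozygous and wild-type mice it was 1 without heterozygous replicate 2 and homozygous replicates 4 and 5 (Avp) and 1 with the score (Rgs16). In homozygous against heterozygous mice it was 1 in DESeq2, 1 with no filter and 0 to 1 in single omissions. The 4 activity-induced calls became 2 with the block, 1 with the score and 2 to 4 in single omissions. Between heterozygous and wild-type mice DESeq2 called 1, limma-voom 2, the fits without filter, with 2 genotypes, with the block, with the score and without homozygous replicates 4 and 5 (with or without heterozygous replicate 2) 2 each, and single omissions 0 to 1. Between homozygous and heterozygous mice it was 2 with no filter and 0 to 2 in single omissions. Over all genes tested, 1475 higher and 1248 lower calls between homozygous and wild-type mice became 757 and 565 with the block, 810 and 534 without homozygous replicates 4 and 5, and 345 and 117 with the score. Single omissions gave 1074 and 782 to 1638 and 1438. Between heterozygous and wild-type mice, 55 and 9 became 225 and 55 with no filter, 269 and 113 with 2 genotypes and 127 and 31 with the block. They became 188 and 72 with the score, 298 and 132 without homozygous replicates 4 and 5, and 562 and 416 also without heterozygous replicate 2. Single omissions there gave 3 and 0 to 156 and 62. The causes of these shifts were not tested.

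Of 687 values of members under alternatives, 33 changed sign, all of them in values that were not called. Between homozygous and wild-type mice Arntl stood at 0.11 in the 11 libraries without the block, 0.059 without homozygous replicates 4 and 5 (0.059 also without heterozygous replicate 2) and 0.23 with the score, and at -0.19 to 0.12 in single omissions. Per1 stood at 0.11 with the score. Cry1 stood at -0.23 with the block and -0.27 with the score. Cry2 stood at 0.052 with the block, 0.071 without homozygous replicates 4 and 5 (0.069 also without heterozygous replicate 2), 0.086 with the score and -0.13 to 0.041 in single omissions. Sphk2 stood at 0.11 with the block and 0.33 with the score, and Camta1 at -0.010 to 0.13 in single omissions. Between heterozygous and wild-type mice Per1 stood at -0.068 without heterozygous replicate 2 and homozygous replicates 4 and 5, and Cry1 at -0.0835 with the block and -0.076 with the score. Single omissions there gave -0.22 to 0.081 for Arntl, -0.068 to 0.25 for Per1, -0.18 to 0.067 for Per2 and -0.11 to 0.22 for Cry1. Between homozygous and heterozygous mice Cry1 stood at -0.15 with the block, -0.054 in the 11 libraries without it, -0.057 without homozygous replicates 4 and 5, -0.19 also without heterozygous replicate 2, and -0.19 with the score. Single omissions there gave -0.085 to 0.21 for Arntl and -0.054 to 0.33 for Cry1.

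Replicate numbers did not pair the libraries throughout. Deviations from the genotype means correlated at -0.265 to 0.337 in 8 same-numbered pairs, 1 of them over 0.1. That pair was heterozygous and homozygous replicate 2, the libraries with the most counts (2329642 and 2330872). Of 10 libraries with a partner, 4 matched best with their own number. Replicate 2 held the highest Nr1d1 (156, 123 and 116 CPM) and Per1 (50.4, 62.1 and 41.8 CPM) of the wild-type, heterozygous and homozygous libraries. What the numbers stand for is not known here. The block fit left out homozygous replicate 5. Counts of 6 to 50 for Arntl, Cry1 and Dbp in many libraries limit what their tests can show.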
